A study of Mus musculus with 26 samples.

Results

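Autophagy and lysosome genes were followed through 5 comparisons of mouse striatum, the forebrain nucleus hit first in Huntington's disease. The 58 genes are those of 14833 symbols in the deposited tables that match a rule on the symbol, which uses no expression value. An autophagy arm of 30 genes holds the Atg genes, the Ulk kinases, the Wipi proteins, the Map1lc3 and Gabarap genes, Becn1 and Sqstm1. A lysosome arm of 28 genes holds 8 cathepsins (Ctsa, Ctsb, Ctsd, Ctsf, Ctsh, Ctsk, Ctsl and Ctsz), 3 Lamp genes and 17 subunits of the vacuolar ATPase. All 58 were listed at 4 weeks, 8 weeks and 1 year. In the table of AAV-treated R6/1 against wild type Lamp3 was not analysed here, and in the Elk-1 table Atg4a was not, which left 57 genes in each. The rule takes in symbols that share a stem without sharing a role: Ulk4 is a pseudokinase, and Lamp3 is best known from dendritic cells.

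In autophagy, a double membrane closes around cytoplasm, protein aggregates or organelles and then fuses with a lysosome, where acid hydrolases break the contents down. Ulk kinases start the process, a Becn1-containing lipid kinase marks the site, Atg9 and Atg2 proteins supply membrane, and conjugating enzymes attach Atg8-type proteins (Map1lc3 and Gabarap) to it, to which receptors such as Sqstm1 bind their cargo. The vacuolar ATPase acidifies the lysosome, Lamp proteins line its membrane, and cathepsins are its proteases. The pathway is studied in Huntington's disease because mutant huntingtin forms aggregates that autophagy can take up. Transcript levels measure neither the flux through the pathway nor the modification of its proteins.

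The 26 RNA-seq libraries form 9 groups. R6/1 mice were compared with wild-type mice at 4 weeks and at 8 weeks, and CHL2 mice with wild-type mice at 1 year, with 3 libraries in each of these 6 groups, which are called untreated here because their labels name no virus. At 10 weeks, R6/1 mice with a control adeno-associated virus (AAV; 2 libraries) were compared with wild-type mice given the same control virus (2 libraries), and R6/1 mice given an Elk-1 AAV (4 libraries) with those control-AAV R6/1 mice. In R6/1 mice a transgene expresses exon 1 of human huntingtin, and CHL2 is a knock-in strain whose own huntingtin gene carries an expanded CAG repeat. Elk-1 belongs to the ETS transcription factors. The table names call the control vector mCherry. Not given in the sources used here were the promoter, dose, site and day of the viral delivery, the promoter of the transgene, the strain and sex of the mice, and whether a library is 1 animal.

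Levels are FPKM, fragment counts scaled to transcript length and library size, and the tables hold 1 pooled value per group with no value per library. Library depth and library-to-library spread are therefore unknown, and no test was run on the values themselves. Calls are those of the authors' deposited Cuffdiff test, a gene being called when its q, the p adjusted over the whole table, was below 0.05. "Higher" and "lower" below refer to the pooled values, and "rose" and "fell" are kept for called genes. Elk1 itself rose from 15.1 to 30.1 FPKM with the Elk-1 virus, with a q of 0.0122 in the authors' deposited table. The tissue label was checked against 10 markers of striatal projection neurons, none of which was at 0. All 10 were lower in each of the 4 genotype comparisons, and 2, 10, 9 and 9 of them fell at 4 weeks, 8 weeks, 1 year and 10 weeks. Markers of neighbouring tissue also moved: summed choroid plexus markers went from 1538 to 595 FPKM at 8 weeks (7 of 9 fell). They went from 350 to 1597 FPKM in the 10-week genotype comparison (4 of 9 rose). At 4 weeks their sum was 574.1 and 694.5 FPKM and in CHL2 1381 and 971.7, with none called. Most of each sum was Ttr, which at 8 weeks was at 1455 and 560 FPKM and was not called. Summed hypothalamic markers went from 103 to 42.9 FPKM at 4 weeks (2 of 6 fell) and from 13.1 to 25.5 at 8 weeks (1 of 6 rose). They went from 68.2 to 161 FPKM in CHL2 (5 of 6 rose) and from 65.1 to 353 at 10 weeks (4 of 5 rose). The part of these tissues in the values below was not tested. Bulk tissue cannot tell fewer cells of a type from less RNA per cell.

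None of the 58 genes of the symbol rule was called in any comparison. Some related autophagy and lysosomal genes outside the rule were called and are described below. The count of called members was 0 of 58 at 4 weeks, where 0.468% of all genes were called (0.275% higher and 0.193% lower). It was 0 of 58 at 8 weeks, where 6.12% of all genes were called, 0.789% higher and 5.34% lower. In CHL2 mice at 1 year it was 0 of 58 against 3.65% of all genes, 1.67% higher and 1.97% lower. In the 10-week genotype comparison it was 0 of 57 against 3.24%, with 0.724% higher and 2.51% lower. Under Elk-1 it was 0 of 57 against 0.575%, with 0.299% higher and 0.276% lower. Without adjustment, the Cuffdiff p of the authors' deposited table was below 0.05 for 0, 3, 1, 1 and 1 members in that order, against 5.36%, 14.3%, 13.3%, 10.7% and 4.91% of all genes. The 3 members at 8 weeks were Atg9b, Atg16l2 and Atp6v1g1, and the others were Atp6v1a in CHL2, Atg9b at 10 weeks and Ctsd under Elk-1.

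Median changes of both arms were small in every comparison. They are given on the log2(FPKM + 1) scale as model minus wild type, or Elk-1 minus control virus. The autophagy arm had medians of -0.015 at 4 weeks, 0.027 at 8 weeks, -0.024 in CHL2 and -0.051 at 10 weeks, and 0.039 under Elk-1. The lysosome arm had -0.043, 0.046, -0.063, -0.052 and 0.104 in the same order, and the medians of all genes were 0.001, 0.006, 0.002, 0.014 and 0.013. Without the members that share their listed position with another gene, the CHL2 median of the autophagy arm was -0.002 and the 4-week median of the lysosome arm -0.026. Both arms lay on the same side of 0 in each comparison, but not on the same side at 4 and at 8 weeks in the same model. After 1 was added to each pooled FPKM, the share of members with values within 1.1-fold of each other was 94.8%, 82.8%, 75.9%, 56.1% and 61.4%. It was 77.0%, 58.3%, 60.3%, 42.7% and 54.3% of all genes. The added 1 narrows the ratios of low genes most. Members were more abundant than the average gene, with a median level of 32.5 FPKM against 10.3 at 4 weeks. Among genes of at least 10 FPKM, the shares within 1.1-fold, again after adding 1, were 97.7%, 93.2%, 77.8%, 62.2% and 65.2% of members. They were 80.5%, 60.8%, 62.9%, 47.5% and 60.1% of all such genes, so the gap was narrowest under Elk-1. Members above this cut were still more abundant, with a median of 51.7 FPKM against 23.8 for all such genes at 4 weeks, so levels were not matched.

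**Figure D1:**
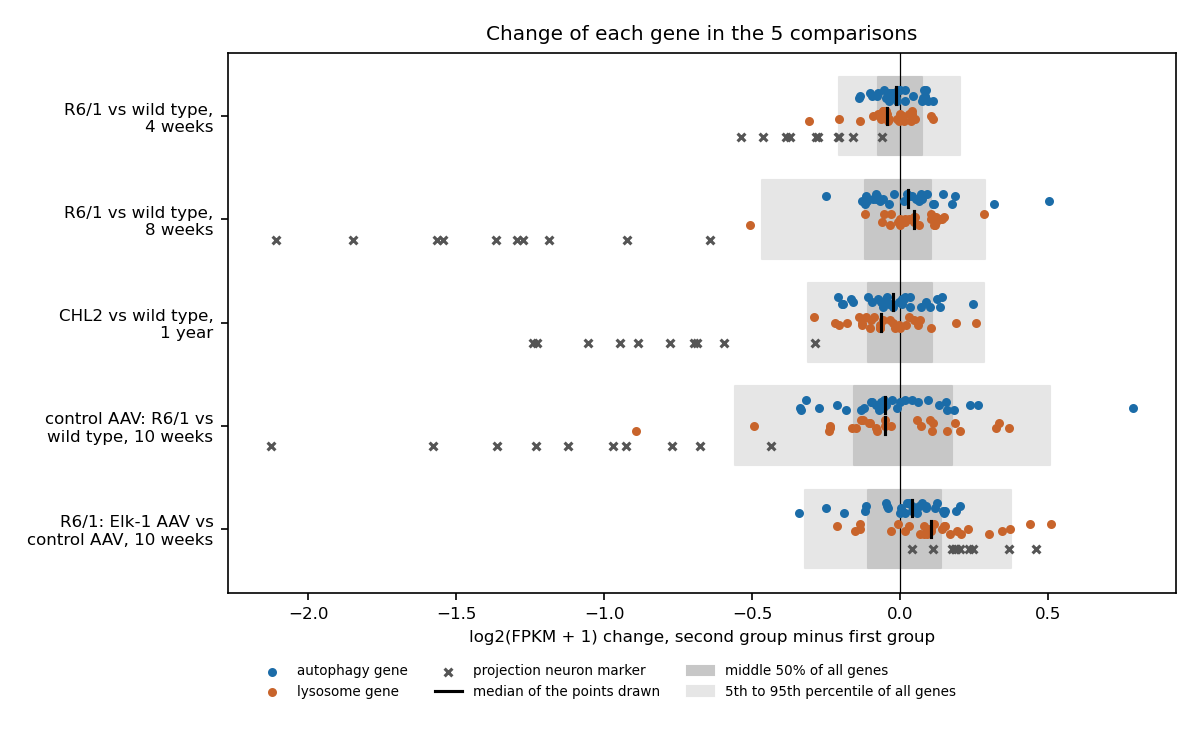
Change of each gene between pooled group values, on the log2(FPKM + 1) scale, for the 5 comparisons. Blue and orange points are single autophagy and lysosome genes, black bars their medians, crosses the 10 projection neuron markers, and grey bands the middle 50% and the 5th to 95th percentile of all genes; both arms centre near 0 in each row while the crosses lie left of 0 in the 4 genotype rows.

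How small a change these tables could show was described by the error that each deposited p implies under a normal test, an approximation chosen after seeing the data. With it, the 95% interval of a member's fold change had a median half-width of 0.234 log2 units at 4 weeks, 0.273 at 8 weeks, 0.241 in CHL2, 0.392 at 10 weeks and 0.359 under Elk-1. Intervals lay wholly inside a 1.41-fold change in either direction for 55, 48 and 50 of 58 members in the untreated comparisons. They did so for 23 of 57 in the 10-week genotype comparison, which sets 2 libraries against 2, and for 33 of 57 under Elk-1, which sets 4 against 2. The shares of all genes inside that limit were 73.8%, 51.5%, 60.6%, 17.6% and 34.2% in the 5 comparisons. A 2-fold change in either direction lay outside the interval of 57, 56, 57, 51 and 52 members. It lay outside that of 94.6%, 87.0%, 91.8%, 73.3% and 84.4% of all genes. The exceptions at 8 weeks were Atg9b and Atp6v1c2, both below 3 FPKM.

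Levels differed widely among the members, and their order was nearly the same in every group. FPKM is per length, so genes can be compared within a group, but the tables were normalized separately and levels across tables carry that limit. Rank correlations of the members' levels between different pools ranged from 0.975 to 0.999, over 56 to 58 genes; the genes of a pool share its libraries and its normalization. Gabarapl1, an Atg8-type protein that is abundant in neurons, was the highest, at 349 to 604 FPKM. The ATPase subunits Atp6v1e1 (229 to 532 FPKM) and Atp6v1b2 (261 to 374 FPKM) and the cargo receptor Sqstm1 (214 to 399 FPKM) followed. The lowest were Lamp3 (0.762 to 1.55 FPKM), the protease Atg4a (0.851 to 1.58 FPKM), Atp6v1c2 and Ulk4. In the AAV tables several ATPase subunits and Atg8-type genes stood higher than in the untreated tables in wild type too: Atp6v1e1 was at 239, 242 and 307 FPKM in the untreated wild types and at 532 in the control-AAV wild type. Age, virus, library preparation and normalization cannot be told apart there.

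**Figure D2:**
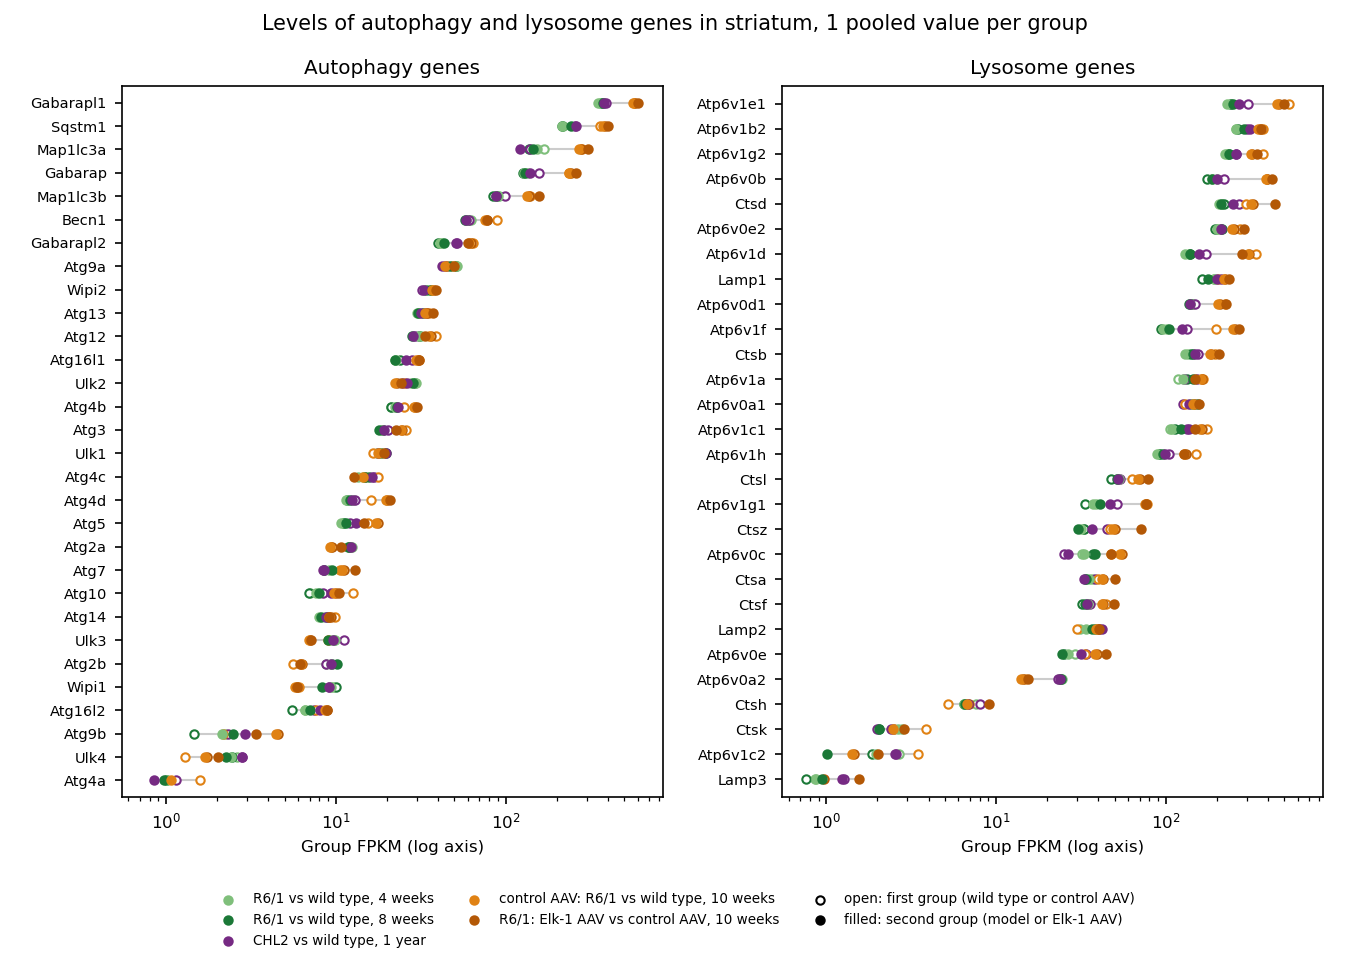
Pooled FPKM of each autophagy gene (left) and lysosome gene (right) on a log axis, with open points for the first group and filled points for the second group of each comparison; the control-AAV R6/1 pool appears in both AAV comparisons. Genes are ordered by mean level, from Gabarapl1 and Atp6v1e1 at the top to Atg4a and Lamp3 at the bottom, and for most genes the open and filled points of a colour nearly coincide.

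Among the initiation genes, Ulk1, the kinase that starts autophagosome formation, had a higher pooled value in the second group of every comparison. It was at 17.4 and 18.6 FPKM in wild type and R6/1 at 4 weeks, 18.5 and 19.7 at 8 weeks, 17.8 and 19.7 in wild type and CHL2, 16.5 and 17.8 at 10 weeks, and 18.2 and 19.3 under control and Elk-1 virus. Each difference was at most 1.11-fold, and the lowest q for Ulk1 in the authors' deposited table was 0.675. Ulk2, a close relative of Ulk1, went from 25.5 to 22.3 FPKM at 10 weeks, and Atg13, which holds the kinase complex together, from 32.7 to 30.6 at 8 weeks. Ulk3 was lower in CHL2 (11.2 and 9.67 FPKM) and at 10 weeks (9.0 and 6.91 FPKM), with q of 0.561 and 0.785 in the authors' deposited table. Ulk4 stayed below 3 FPKM in every group.

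Becn1 and Atg14, subunits of the lipid kinase complex, were lower in the model than in wild type in all 4 genotype comparisons. Becn1 was at 62.6 and 58.6 FPKM at 4 weeks, 60.2 and 57.8 at 8 weeks, 61.1 and 58.5 in the CHL2 comparison, and 88.5 and 76.1 at 10 weeks. With the Elk-1 virus it was at 78.2 FPKM against 77.9. Its largest difference, at 10 weeks, was a fold of 0.86 with an implied interval of 0.667 to 1.11 and a q of 0.86 in the authors' deposited table. Atg14 was at 8.61 and 7.95, 8.94 and 8.17, 9.02 and 8.69, and 9.87 and 9.15 FPKM in the same 4 comparisons. A same direction in 4 comparisons that each missed the threshold by a wide margin is a description of these pools. The listed position of Becn1 also overlaps Cntd1, so their reads may be shared.

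Atg9b, one of the membrane-carrying Atg9 proteins, had the largest deposited log2 fold change of the autophagy genes in every comparison but that at 4 weeks, among those with a mean of at least 1 FPKM. Its pooled value was 2.23 FPKM in wild type and 2.12 in R6/1 at 4 weeks, 1.46 and 2.48 at 8 weeks, 2.30 and 2.92 in wild type and CHL2, 2.16 and 4.46 at 10 weeks, and 4.56 and 3.39 under control and Elk-1 virus. R6/1 was higher than wild type at 8 and at 10 weeks but not at 4 weeks. The 8-week ratio was 1.70 with an implied interval of 1.12 to 2.59, and the authors' deposited table gives a log2 fold change of 0.77, p 0.013 and q 0.146. At 10 weeks the ratio was 2.06 (1.06 to 4.00), with p 0.0325 and q 0.372 in the authors' deposited table. Atg9b is low throughout and lies on chr5:23870636-23897961 (mm9), a position it shares in the tables with Nos3, so that its reads may be mixed with those of its neighbour. Nos3, the endothelial nitric oxide synthase, was higher in R6/1 at 8 weeks (2.90 and 3.01 FPKM) and lower at 10 weeks (1.34 and 1.15 FPKM). The part of shared reads in the Atg9b values was not tested.

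The other Atg9 protein, Atg9a, was far more abundant and lay between 42.2 and 51.5 FPKM in every group. Its 8-week values were 51.1 and 47.0 FPKM, opposite in direction to Atg9b. Wipi1, a phosphoinositide-binding protein at the forming membrane, was at 9.99 FPKM in wild type and 8.24 in R6/1 at 8 weeks, with a q of 0.55 in the authors' deposited table. Wipi2 differed by at most 1.05-fold in any comparison. Atg2a and Atg2b, which transfer lipid to the growing membrane, differed by at most 1.12-fold.

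The 11 conjugation genes, which process Atg8-type proteins and attach them to lipid, gave no common direction: 5, 6, 5 and 5 of 11 were higher in the model in the 4 genotype comparisons and 6 of 10 were higher under Elk-1. Atg16l2, a relative of the scaffold Atg16l1, was at 5.49 FPKM in wild type and 7.09 in R6/1 at 8 weeks. The authors' deposited table gives it p 0.0493 and q 0.347 there, and its 4-week values were 6.62 and 6.57 FPKM. Atg16l1 itself was at 23.8 and 22.4 FPKM at 8 weeks. Atg4d, a protease that trims Atg8-type proteins, was at 12.8 and 11.6 FPKM at 4 weeks and at 16.2 and 19.7 at 10 weeks. Atg10, an E2-like enzyme, was at 7.06 and 7.69 FPKM at 4 weeks but at 12.6 and 9.79 at 10 weeks. Under Elk-1, Atg5 was at 17.7 FPKM with control virus and 14.7 with Elk-1 virus, while Atg7, the E1-like enzyme, was at 11.2 and 12.98. Both had a q of 0.999 in the authors' deposited table.

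The 5 Atg8-type genes kept 1 direction within most comparisons, at small size. All 5 were lower in R6/1 at 4 weeks (median -0.053), all 5 were higher at 8 weeks (median 0.064) and all 5 were lower in CHL2 (median -0.16). At 10 weeks 4 of 5 were lower, and under Elk-1 4 of 5 were higher. Map1lc3a, the cytosolic precursor of a membrane-bound autophagosome marker, was at 169 and 154 FPKM at 4 weeks, 138 and 145 at 8 weeks, 140 and 122 in wild type and CHL2, 282 and 271 at 10 weeks, and 277 and 307 under control and Elk-1 virus. Its CHL2 ratio of 0.872 had an implied interval of 0.746 to 1.02, with p 0.0881 and q 0.493 in the authors' deposited table. Map1lc3b was at 98.6 and 88.2 FPKM and Gabarap at 157 and 140 in wild type and CHL2. No Atg8-type gene differed by more than 1.15-fold anywhere, and their sum went from 837 to 779 FPKM in the CHL2 comparison, the largest relative shift of that sum in the genotype comparisons.

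Transcript length moved with the change in some comparisons. Over all genes the change correlated with the length of the longest annotated transcript at 4 weeks (Spearman's rho 0.48 over 12921 genes) and in CHL2 (rho 0.39 over 12966 genes), where shorter transcripts tended to be lower in the model. The same correlation was 0.39 and 0.38 over the 58 members in these comparisons. It was 0.18 and 0.40 within the autophagy arm and 0.59 and 0.29 within the lysosome arm. Over all genes it was -0.11 at 8 weeks, -0.06 at 10 weeks, where 4 of 5 Atg8-type genes were lower, and -0.18 under Elk-1. Over the members it was -0.01, 0.16 and -0.19 there. Within the autophagy arm it was 0.02, 0.37 and 0.07 in the same order, and within the lysosome arm 0.04, 0.01 and -0.25. Of the Atg8-type genes, Map1lc3a, Gabarap, Gabarapl2 and Gabarapl1 have longest transcripts of 1112, 1351, 1677 and 1820 bases, against a median of 3436 over all genes at 4 weeks. The longest transcript of Map1lc3b, the remaining Atg8-type gene, has 4138 bases, and Map1lc3b was also lower at 4 weeks and in CHL2. The part of transcript length in these directions was not tested. Genes of 1 pool are not independent replicates, so these correlations are descriptions.

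Sqstm1, the receptor that links ubiquitin-tagged cargo to Atg8-type proteins and is itself degraded with it, was at 218 and 214 FPKM at 4 weeks and at 214 and 243 at 8 weeks. It was at 256 and 259 FPKM in the CHL2 comparison, 359 and 374 at 10 weeks, and 383 and 399 under control and Elk-1 virus. The 8-week ratio of 1.14 had an implied interval of 0.944 to 1.37 and a q of 0.671 in the authors' deposited table. In the other 4 comparisons its values differed by less than 1.05-fold.

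The vacuolar ATPase was described by its sectors, V1, which splits ATP, and V0, which carries protons through the membrane. Of the 10 V1 genes, 9 were higher in R6/1 at 8 weeks (median 0.075) and 9 were lower at 10 weeks (median -0.146). At 4 weeks 8 of 10 were lower, in CHL2 6 of 10 were lower, and under Elk-1 5 of 10 were lower. V1 genes together went from 1348 to 1418 FPKM at 8 weeks and from 2389 to 2192 at 10 weeks. Beside the 10-week values, 8 of 8 pan-neuronal markers were also lower in R6/1, with a sum of 4585 and 3443 FPKM and 2 of them called, and the ATPase is abundant in neurons. At 8 weeks 5 of 8 of these markers were lower, with sums of 2709 and 2589 FPKM and none called, none of the 8 being at 0 in either table. Their part in the ATPase values was not tested.

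Within V1, Atp6v1e1, a stalk subunit, was at 239 and 229 FPKM at 4 weeks, 242 and 247 at 8 weeks, 307 and 271 in wild type and CHL2, 532 and 451 at 10 weeks, and 462 and 497 under control and Elk-1 virus. Atp6v1g2, a stalk subunit known from neurons, was at 374 and 316 FPKM at 10 weeks and differed by less than 1.07-fold elsewhere. Atp6v1g1, its widely expressed relative, was at 33.3 FPKM in wild type and 40.7 in R6/1 at 8 weeks, with p 0.0466 and q 0.334 in the authors' deposited table. At 4 weeks it was at 39.0 and 37.4 FPKM, and in CHL2 it was also lower, 51.9 and 47.0. Atp6v1a, the subunit that carries the catalytic site, was at 128 FPKM in wild type and 154 in CHL2, with p 0.0377 and q 0.324 in the authors' deposited table. It was also higher in R6/1 at 4 weeks (117 and 126 FPKM) and 8 weeks (132 and 146 FPKM) but not at 10 weeks (167 and 161 FPKM). Atp6v1f was the V1 gene that was higher at 10 weeks, at 197 and 249 FPKM. Atp6v1c2, a minor isoform, was the V1 gene that was lower at 8 weeks, at 1.86 and 1.02 FPKM, and its implied interval of 0.15 to 1.98 shows how little its low values can say.

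Medians of the 7 V0 genes ran from -0.032 at 10 weeks to 0.049 at 8 weeks in the genotype comparisons, and 6 of 7 were higher under Elk-1 (median 0.103). Atp6v0b, a proteolipid subunit of the proton ring, was at 200 and 187 FPKM at 4 weeks, 175 and 188 at 8 weeks, 219 and 201 in the CHL2 comparison, and 396 and 388 at 10 weeks. Atp6v0e was at 29.1 and 26.4 FPKM at 4 weeks, with a q of 0.999 in the authors' deposited table. Atp6v0c went against its sector under Elk-1, at 55.2 FPKM with control virus and 47.5 with Elk-1 virus.

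Lamp1 and Lamp2, the main glycoproteins of the lysosomal membrane, had no shared direction at 8 weeks or in CHL2, while both were higher in R6/1 at 4 and 10 weeks and with Elk-1 virus. Lamp1 was at 191 and 193 FPKM at 4 weeks, 164 and 178 at 8 weeks, 210 and 201 in wild type and CHL2, 203 and 219 at 10 weeks, and 225 and 235 under control and Elk-1 virus. Lamp2 had its largest difference at 10 weeks, 29.9 FPKM in wild type and 38.9 in R6/1, a ratio of 1.30 with an implied interval of 0.966 to 1.75. The authors' deposited table gives that difference p 0.0832 and q 0.605. At 8 weeks Lamp2 was at 38.1 and 36.5 FPKM. Lamp3 was at 0.970 and 1.55 FPKM under control and Elk-1 virus, with a q of 0.999 in the authors' deposited table.

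Under Elk-1 the 8 cathepsins of the symbol rule had higher pooled values, though none of these 8 was called. Ctss, a cathepsin outside the rule, was called higher and is described below. All 8 were higher with Elk-1 virus than with control virus, with a median change of 0.218 against 0.013 for all genes, and their sum was 726 and 909 FPKM. All 3 Lamp genes were higher as well. Of 59 lysosomal genes outside the symbol rule, 44 were also higher, with a median change of 0.097. Of all genes, 52.9% were higher, and their summed FPKM was 523800 with control virus and 626900 with Elk-1 virus. Among all genes of at least 10 FPKM, 56.9% were higher, with a median change of 0.029. Ctsd, the main aspartic protease of the lysosome and the most abundant cathepsin here, made up most of the difference in the cathepsin sum. Its values were 214 FPKM in wild type and 206 in R6/1 at 4 weeks, 221 and 213 at 8 weeks, 271 and 250 in wild type and CHL2, 297 and 318 at 10 weeks, and 326 and 442 under control and Elk-1 virus. The last ratio was 1.36 with an implied interval of 1.04 to 1.77, and the authors' deposited table gives p 0.0231 and q 0.796. Ctsz, an exopeptidase, was at 50.1 and 71.7 FPKM under the 2 viruses, a ratio of 1.43 (0.997 to 2.06). The authors' deposited table gives it a Cuffdiff p of 0.052 and a q of 0.999. Ctsb, a cysteine protease, was at 185 and 205 FPKM, and Ctsh at 6.91 and 9.05.

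In CHL2 mice the cathepsins leaned the other way, 7 of 8 being lower than in wild type with a median of -0.092. Their sum was 608 and 564 FPKM. Beside it, oligodendrocyte markers were lower in 7 of 7 (4696 and 3239 FPKM in sum, 2 called) and hypothalamic markers higher in 6 of 6 (5 called), none being at 0; their part was not tested. Ctsz was at 45.0 FPKM in wild type and 36.7 in CHL2, a ratio of 0.814 (0.650 to 1.02) with p 0.074 and q 0.452 in the authors' deposited table. Ctsk, known from bone-resorbing cells and low in striatum, was the one that was higher, at 1.98 and 2.40 FPKM. In R6/1 at 4 weeks 7 of 8 cathepsins were lower with a median of -0.048, and Ctsh had the largest difference, 7.58 and 6.44 FPKM. At 8 weeks 5 of 8 were higher and the sum was 515 FPKM in both groups. At 10 weeks 5 of 8 were higher, Ctsh being at 5.19 and 6.75 FPKM and Ctsk at 3.87 and 2.46.

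Most microglial markers and most cathepsins lay in the same direction under Elk-1, in CHL2 and at 4 weeks. Under Elk-1, 10 of 10 were higher, the summed level being 338 FPKM with control virus and 549 with Elk-1 virus. Of these, 3 rose: C1qa from 72.1 to 131, C1qb from 59.7 to 103 and C1qc from 57.8 to 94.7 FPKM, all subunits of complement C1q. In CHL2, 10 of 10 were lower with none called, and the sum was 373 FPKM in wild type and 311 in CHL2. At 4 weeks 8 of 10 were lower (266 and 247 FPKM), at 8 weeks 5 of 10 (269 and 271 FPKM), and at 10 weeks 9 of 10 (400 and 330 FPKM), none being called. The 10-week comparison thus paired lower microglial markers with a cathepsin sum of 694 and 709 FPKM. None of the 10 markers was at 0 in any group, and their part in the cathepsin values was not tested. Choroid plexus markers were also higher under Elk-1, 1635 and 2326 FPKM in sum, and hypothalamic markers lower, 362 and 32.6 FPKM. The 10 projection neuron markers were all higher, 987 and 1209 FPKM in sum, with none called. The Elk-1 and the 10-week genotype comparisons share the control-AAV R6/1 libraries, so their values are given side by side only.

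**Figure D3:**
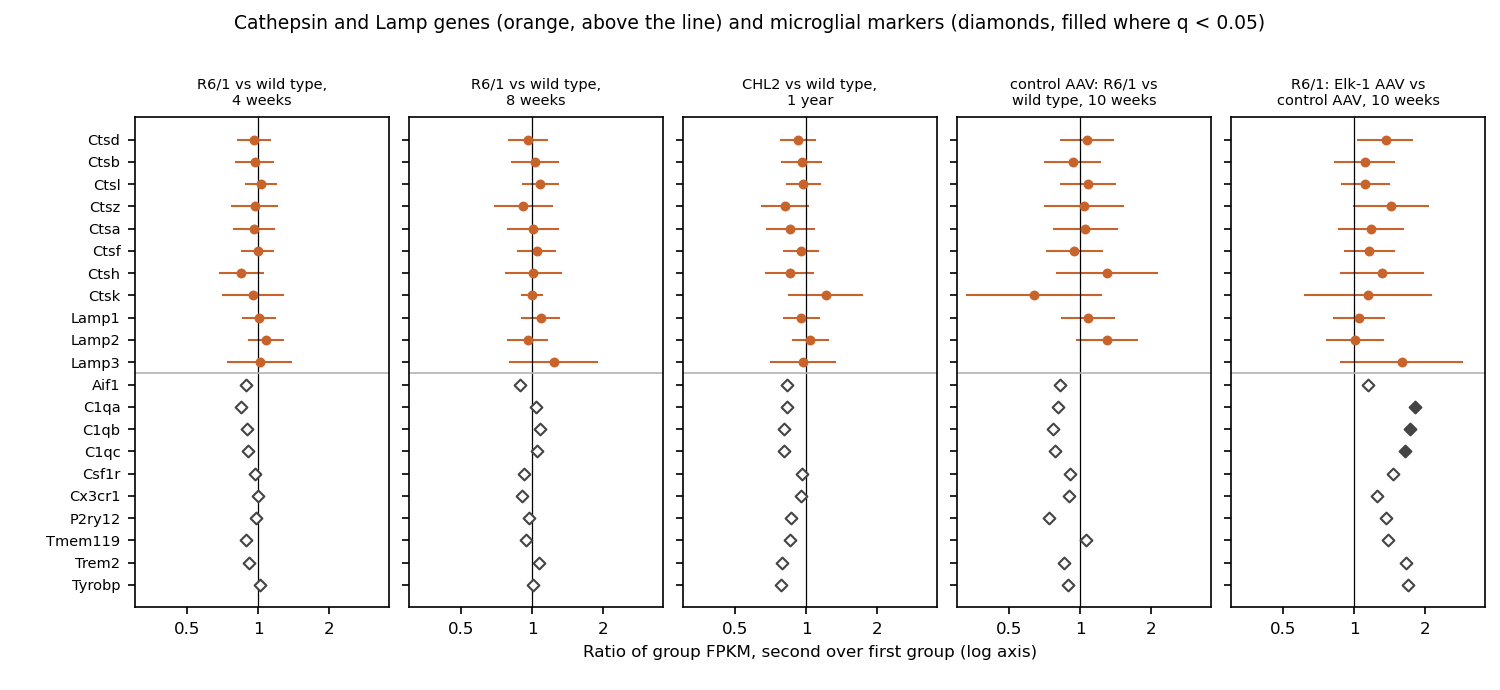
Ratio of pooled FPKM, second over first group on a log axis, for the 8 cathepsins and 3 Lamp genes (orange, bars are the 95% intervals implied by the deposited p) and 10 microglial markers (diamonds, filled where called). In the right panel all orange points and diamonds lie right of 1 and 3 diamonds are filled, and in the CHL2 panel all 10 diamonds and 7 of 8 cathepsins lie left of 1.

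Related genes outside the symbol rule gave 3 called genes. Of 46 other autophagy regulators, 45 were listed at 8 weeks and 1 fell: Rragd, a Rag GTPase that recruits the growth kinase complex mTORC1 to lysosomes, from 60.7 FPKM in wild type to 39.3 in R6/1. The authors' deposited table gives it a log2 fold change of -0.63 and q 0.0016. Of 60 other lysosomal genes, 59 were listed in every table, and 1 rose at 10 weeks and 1 under Elk-1. Gaa, the acid alpha-glucosidase that breaks down glycogen, rose from 115 FPKM in wild type to 181 in R6/1 at 10 weeks, with q 0.00983 in the authors' deposited table. Ctss, a cathepsin of microglia and other antigen-presenting cells, rose from 74.5 FPKM with control virus to 123 with Elk-1 virus, with a log2 fold change of 0.72 and q 0.0122 in the authors' deposited table. Over all genes, 6.12%, 3.24% and 0.575% were called in these 3 comparisons. No gene of either list was called at 4 weeks or in CHL2. An unadjusted Cuffdiff p below 0.05 was found for 3, 3, 3, 3 and 0 regulators of 45, 45, 45, 44 and 44 at 4 weeks, 8 weeks, 1 year, 10 weeks and under Elk-1. It was found for 0, 3, 4, 4 and 5 of 59 lysosomal genes in that order, against 5.36%, 14.3%, 13.3%, 10.7% and 4.91% of all genes.

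Directions were compared across genotype comparisons that share no library. Of the 58 members, 25 had the same sign at 4 and at 8 weeks (43.1%, against 53.9% of all genes). Between R6/1 at 4 weeks and CHL2, 40 of 58 did (69.0%, against 66.4% of all genes). Between 8 weeks and CHL2 it was 33 of 58 (56.9%, against 60.5%), and between 8 and 10 weeks in R6/1 it was 34 of 57 (59.6%, against 62.7%). Between 4 and 10 weeks in R6/1 it was 33 of 57 (57.9%, against 49.4%), and between CHL2 and 10 weeks 36 of 57 (63.2%, against 58.3%). The members' share was thus above that of all genes in 3 of these 6 pairs and below it in the other 3, and no test was run on them.

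Many lysosomal genes are controlled by TFEB and its relatives, which bind an E-box with the core CACGTG, so the promoters of the members were searched for it. The 250 bases before the gene start were read from RefSeq (GRCm38.p6) for the 47 members it holds a promoter for; 11, among them Becn1 and Ctsb, had none in that table. CACGTG was present in 10 of 47 members (21.3%), against 6.86% of 27025 genes with a promoter of the same length and 9.78% of the 10433 of them listed in the tables. TCACGTGA, which contains it, was present in 4 of 47 (8.51%), against 0.907% and 1.68%. Both words read the same on either strand, so 1 search covers both strands. By arm, CACGTG was found in 7 of 21 lysosome genes and 3 of 26 autophagy genes, and among the cathepsins in 4 of 6 (Ctsa, Ctsd, Ctsf and Ctsl). These windows show the word in some of the members that carry it, with the word in capitals, 5′ to 3′ on the strand of the gene.
Ctsd: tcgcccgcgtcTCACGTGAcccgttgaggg
Atp6v1a: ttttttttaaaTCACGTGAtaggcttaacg
Atg3: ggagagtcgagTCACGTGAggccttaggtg
Ctsf: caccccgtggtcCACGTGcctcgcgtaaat
Lamp1: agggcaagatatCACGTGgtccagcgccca
Atg7: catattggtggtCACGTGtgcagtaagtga
On GRCm38.p6 the Ctsd window is chr7:142387908-142387937 (minus strand), that of Atp6v1a chr16:44139373-44139402 (minus strand) and that of Atg3 chr16:45158746-45158775 (plus strand). Those of Ctsf, Lamp1 and Atg7 are chr19:4855074-4855103, chr8:13159088-13159117 and chr6:114670952-114670981, all on the plus strand. The Ctsd word begins 99 bases before the gene start and the Lamp1 word 61 bases before it. Lamp1 has 4 copies of CACGTG in its 250 bases. A match describes the letters in this window and says nothing about binding in striatum.

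Medians of the members with and without the word ran from -0.068 to 0.123. The 10 with CACGTG had median changes of -0.009 at 4 weeks, 0.085 at 8 weeks, -0.068 in CHL2, 0.055 at 10 weeks and 0.123 under Elk-1. The others, including those with no promoter in RefSeq's table, had -0.028, 0.026, -0.025, -0.063 and 0.064. Of the 4 genes with TCACGTGA, Ctsd had its largest difference under Elk-1 and Atp6v1a in CHL2, while Atg3, the E2-like enzyme that joins Atg8-type proteins to lipid, was at 18.9 and 17.9 FPKM at 8 weeks and 24.6 and 22.7 under control and Elk-1 virus. Ctsa, a serine carboxypeptidase, was at 42.8 and 50.4 FPKM under the viruses.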

How the data were processed

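The members and gene lists were chosen with earlier results of these data known. Per the labels' protocols, RNA from striatum was extracted with Trizol and prepared with a TruSeq kit. Per the submitters' processing notes, the tools were TopHat, Bowtie, Cufflinks and Cuffdiff on mm9; not given in the sources used here were versions, gene annotation and strandedness. The deposit by the authors holds 5 tables with 1 pooled FPKM per group and gene. They also deposited the log2 fold change of these FPKM values and a p-value and q-value per gene, the q-values being the Benjamini-Hochberg adjustment over each table. These p-values reflect variation among libraries that may not be separate animals and so may be technical. The planned limma fits were not run, since they need values of single libraries.

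Changes were computed as log2(FPKM + 1) differences where the mean FPKM of both groups was 0.5 or more, which all listed members passed; the added 1 understates changes of low genes. The implied error is the deposited log2 fold change divided by the normal quantile of its deposited p, and intervals are 1.96 errors wide on each side. Genes were named by a rule: the 3 largest changes of each arm in each comparison at a mean FPKM of at least 1, the 5 highest levels of each arm, 8 fixed genes (Ulk1, Becn1, Map1lc3b, Sqstm1, Ctsd, Ctsb, Lamp1 and Lamp2) and any called gene of the other lists; further members were named after their values were seen. Transcript lengths came from GENCODE M21. Other marker lists (astrocyte, oligodendrocyte and vascular) had 0, 0 and 0 of their genes called at 4 weeks; oligodendrocyte markers had 2 of 7 lower calls in CHL2 and vascular markers 1 of 6 higher at 8 weeks. Analyses used Python 3.11.15, pandas 2.3.3, numpy 2.4.6 and scipy 1.17.1.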

Additional observations from a re-analysis of the deposited data

How the results depend on the processing

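The count of called members was 0 in both arms of every comparison also at a q threshold of 0.10; a threshold of 0.01 and leaving out members that share their listed position could not raise a count of 0. The median changes of the arms kept their sign with an added 0.1 in place of 1, a minimum of 2 FPKM, centring on the median of all genes, and without members of a shared position, and moved by at most 0.022 log2 units. Leaving out the last moved the CHL2 autophagy median from -0.024 to -0.002 and the 4-week lysosome median from -0.043 to -0.026. Dropping the filter changed nothing, since every listed member passed it. No paired analysis was possible because the tables hold 1 pooled value per group, and for the same reason no library could be left out in turn. Pooled values hide any library that stands apart, depth per library is unknown, and the 10-week comparisons rest on 2 control-AAV libraries per group, with wider implied intervals. Reads may be shared with overlapping genes for Atg9b, Atg4d, Atg16l1, Atp6v1c2, Becn1, Ctsa, Ctsb, Ctsz and Gabarapl1.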
